A study of Mus musculus with 6 samples.

Results

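The 10 genes described here mark Sertoli cells or carry out their functions in the testis. They are *Sox9*, *Wt1*, *Gata4*, *Amh*, *Fshr*, *Cldn11*, *Inhbb*, *Clu*, *Gdnf* and *Kitl*, taken as a list of names and matched by symbol to 1 Ensembl identifier each among the 55536 genes counted in testis RNA. All 10 were detected in every mouse and passed the filter on low counts. RNA of whole testes from 6 mice at 7 weeks of age was sequenced, with 1 directional library for each of 3 KOStra8 and 3 HETStra8 mice. KOStra8 mice (*Sel1L* flox/∆;Stra8-Cre) have 1 floxed and 1 deleted copy of *Sel1L* and a Cre that a male germ cell promoter, Stra8, drives, so that Sertoli cells are not the intended target of the deletion. For HETStra8 the sources differ: the study's text counts both flox/+ mice with Stra8-Cre and flox/∆ mice in this group, the record lists flox/∆ littermates, and neither says which mouse is which. The HETStra8 mice are thus heterozygous rather than wild-type controls.

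Sertoli cells are the somatic cells of the seminiferous tubule. They enclose germ cells at every stage, seal the tubule with tight junctions that form the blood-testis barrier, and respond to follicle-stimulating hormone. They also secrete the hormones inhibin and anti-Müllerian hormone and the growth factors that keep spermatogonial stem cells and their differentiating progeny alive. SEL1L is the partner of the ubiquitin ligase HRD1 in the degradation of misfolded proteins of the endoplasmic reticulum. The comparison asked how transcripts of these supporting cells stood in testes with *Sel1L* deleted in germ cells. By staining, the study reports SEL1L lost from spermatocytes and spermatids of KOStra8 mice. It reports SEL1L still present in spermatogonia, where the Cre is only partly active, and not affected in Sertoli cells.

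Library totals lay between 28875108 and 36526695 counts. The targeted gene, *Sel1l*, was at 49.3, 47.6 and 42.4 CPM (counts scaled to library size with TMM) in HETStra8 mice 1 to 3 and at 24.2, 22.0 and 20.3 CPM in KOStra8 mice 1 to 3. The KOStra8 mean of *Sel1l* was thus 47.7% of the HETStra8 mean, and all 6 labels matched the counts of this gene. HETStra8 mouse 1 stood apart in *Crisp1* and *Adam7*, epididymal genes named after their values were seen. It had 220 counts of *Crisp1* against 11 or fewer in each of the other mice, and 44 counts of *Adam7* against 0. The other listed epididymal genes did not set it apart. *Rnase10* had 149 counts in it, 149 in HETStra8 mouse 2 and 228 in KOStra8 mouse 3. *Lcn5*, *Lcn8* and *Lcn9* had 0 counts in it. The members and their median are therefore also given without this mouse.

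None of the 10 Sertoli genes passed the study's cutoffs between KOStra8 and HETStra8 testes, a fold of 2 and a Benjamini-Hochberg adjusted p of 0.01, in edgeR's quasi-likelihood test. Of the 21465 tested genes 0.00932% passed them, 0.00466% as higher and 0.00466% as lower. The study reports many more genes past these cutoffs in each direction, from a comparison whose software its text does not name. At an adjusted p below 0.05 and any fold, 0 of the 10 genes and 0.0233% of all tested genes passed, and the adjusted p-values of the members lay between 0.266 and 0.983. At an unadjusted p below 0.05, *Kitl* was higher and *Clu* and *Gata4* were lower in KOStra8 testes, 3 of the 10 genes where 12.3% of all tested genes passed, 7.13% as higher and 5.12% as lower. DESeq2's Wald test and limma-voom likewise gave 0 members at an adjusted p below 0.05, and each gave 3 at that unadjusted p. When no low counts were filtered out, 2 members, *Kitl* and *Clu*, reached an adjusted p below 0.05 in edgeR's test (0.0134 and 0.0238), at folds below 2. For any difference in a whole testis, the number of Sertoli cells, RNA per Sertoli cell and RNA from other cells cannot be told apart.

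**Figure D1:**
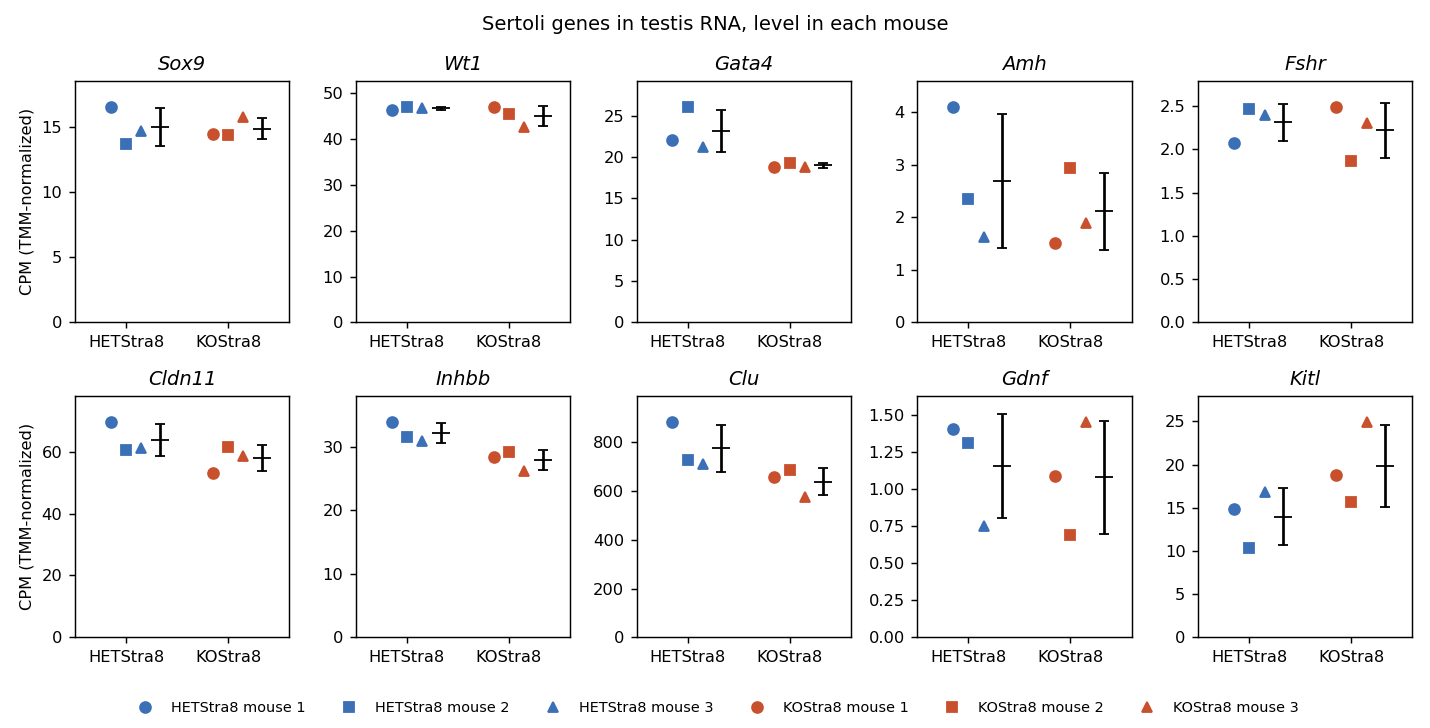
Level of each Sertoli gene in each mouse, in TMM-normalized CPM on an axis from 0, for 3 HETStra8 (blue) and 3 KOStra8 (red) testes. Marker shapes give the mouse number, and the black bar and whiskers give the mean and SD of a group. The groups do not overlap for *Gata4*, *Inhbb* and *Clu*, and overlap for the other 7 genes.

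The transcription factors of Sertoli identity showed 1 gene with separate groups and 2 at nearly equal means. *Sox9* (ENSMUSG00000000567), which directs cells of the fetal gonad to the Sertoli fate, lies on chromosome 11 of GRCm38 from 112782224 to 112787760 on the plus strand. It was at 16.5, 13.7 and 14.7 CPM in HETStra8 mice 1 to 3 and at 14.4, 14.4 and 15.8 CPM in KOStra8 mice 1 to 3. The KOStra8 values lay within the range of the HETStra8 values. With HETStra8 given first here and for the genes that follow, the means were 15.0 ± 1.44 and 14.9 ± 0.780 CPM (SD, n = 3 each), and the log2 fold change was -0.010 with a 95% interval from -0.27 to 0.25 (adjusted p = 0.983 in edgeR's test). This sign depended on the scaling, since library totals in place of TMM gave 0.0020.

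*Wt1* (ENSMUSG00000016458), a zinc finger factor needed to form and keep Sertoli cells, lies on chromosome 2 from 105126529 to 105173616 on the plus strand, 18 bases from *Wt1os* on the opposite strand. Its levels were 46.5, 47.0 and 46.9 CPM in HETStra8 mice 1 to 3 and 47.1, 45.6 and 42.8 CPM in KOStra8 mice 1 to 3. *Wt1* was the steadiest of the 10 genes, with a coefficient of variation of 3.63% over the 6 mice and a ratio of 1.10 between the highest and the lowest mouse. Its log2 fold change was -0.052 with a 95% interval from -0.24 to 0.13 (adjusted p = 0.841 in edgeR's test). A correction of the counts for base composition and transcript length, described below as the GC correction, turned its sign, to 0.078.

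*Gata4* (ENSMUSG00000021944), a zinc finger factor of Sertoli and Leydig cells, lies on chromosome 14 from 63198922 to 63271692 on the minus strand. Its levels were 22.1, 26.1 and 21.3 CPM in HETStra8 mice 1 to 3 and 18.8, 19.3 and 18.8 CPM in KOStra8 mice 1 to 3. All 3 KOStra8 testes lay below all 3 HETStra8 testes, with the HETStra8 mice spread more widely. The means were 23.1 ± 2.57 and 19.0 ± 0.260 CPM (SD, n = 3 each), so that KOStra8 testes had 82.0% of the HETStra8 level. The log2 fold change of *Gata4* was -0.29 (SE 0.112, 95% interval from -0.53 to -0.047) and the adjusted p was 0.337 in edgeR's test. With the GC correction it was -0.14 (adjusted p = 0.827 in edgeR's test), and the groups overlapped.

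Of the members, 3 had groups without overlap, *Gata4*, *Inhbb* and *Clu*, and each of them was lower in KOStra8 testes. Among all tested genes 8.43% were lower without overlap and 9.33% were higher without overlap. A two-sided exact permutation test of 3 mice against 3 gives p = 0.1 for such a gene, the smallest p that it can give.

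The hormone genes are *Inhbb* and *Amh*, and *Fshr* encodes the receptor that receives the pituitary signal. *Inhbb* (ENSMUSG00000037035) encodes the beta B subunit of inhibin B, the Sertoli hormone that restrains follicle-stimulating hormone, and lies on chromosome 1 from 119415465 to 119422248 on the minus strand. Its levels were 34.0, 31.6 and 31.0 CPM in HETStra8 mice 1 to 3 and 28.5, 29.3 and 26.2 CPM in KOStra8 mice 1 to 3. The means of *Inhbb* were 32.2 ± 1.56 and 28.0 ± 1.59 CPM (SD, n = 3 each), a KOStra8 level of 86.9% of the HETStra8 level without overlap between the groups. Its log2 fold change was -0.20 (SE 0.097, 95% interval from -0.41 to 0.0051) and the adjusted p was 0.417 in edgeR's test. The GC correction brought it to -0.040 (adjusted p = 0.952 in edgeR's test), with overlapping groups.

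*Amh* (ENSMUSG00000035262), the hormone by which fetal and immature Sertoli cells make the Müllerian ducts regress, lies on chromosome 10 from 80805243 to 80807648 on the plus strand. HETStra8 mice 1 to 3 had 129, 79 and 54 counts of it and KOStra8 mice 1 to 3 had 53, 85 and 69, or 1.62 to 4.10 CPM and 1.52 to 2.94 CPM. *Amh* varied most among the members, with a coefficient of variation of 40.9% over the 6 mice, and HETStra8 mouse 1 was the highest. Its log2 fold change was -0.35 with a 95% interval from -1.12 to 0.41 (adjusted p = 0.723 in edgeR's test), and 0.084 without HETStra8 mouse 1. The interval of *Amh* was the only one among the members that reached beyond a fold of 2. *Sf3a2*, a widely expressed splicing factor gene, ends 318 bases upstream on the same strand, and was at 57.0 to 76.6 CPM over the 6 mice.

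*Fshr* (ENSMUSG00000032937), the receptor of follicle-stimulating hormone, which Sertoli cells alone express in the testis, lies on chromosome 17 from 88984952 to 89200675 on the minus strand. It was at 2.07, 2.47 and 2.40 CPM in HETStra8 mice 1 to 3 and at 2.49, 1.86 and 2.30 CPM in KOStra8 mice 1 to 3, from 54 to 87 counts per mouse. The highest and the lowest testis both belonged to KOStra8. *Fshr* had a log2 fold change of -0.057 with a 95% interval from -0.60 to 0.49 (adjusted p = 0.947 in edgeR's test). Differences anywhere within this interval are compatible with these counts of 3 mice in each group.

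*Cldn11* (ENSMUSG00000037625), the claudin on which the tight junctions of the blood-testis barrier depend, lies on chromosome 3 from 31149920 to 31164324 on the plus strand. It was at 69.7, 60.5 and 61.3 CPM in HETStra8 mice 1 to 3 and at 53.3, 61.6 and 58.7 CPM in KOStra8 mice 1 to 3. The groups overlapped, since KOStra8 mouse 2 lay above HETStra8 mice 2 and 3. The means were 63.8 ± 5.09 and 57.9 ± 4.25 CPM (SD, n = 3 each), and the log2 fold change, -0.14, had an SE of 0.0913 (adjusted p = 0.546 in edgeR's test). Without HETStra8 mouse 1 it was -0.075, and after the GC correction -0.076.

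*Clu* (ENSMUSG00000022037) encodes clusterin, a secreted chaperone that Sertoli cells release in quantity into the tubule and that the epididymis also makes, and lies on chromosome 14 from 65968483 to 65981547 on the plus strand. Its levels were 885, 729 and 712 CPM in HETStra8 mice 1 to 3 and 657, 685 and 576 CPM in KOStra8 mice 1 to 3. All 3 KOStra8 testes lay below all 3 HETStra8 testes, and HETStra8 mouse 1 was far above the rest. The means were 775 ± 95.2 and 639 ± 56.6 CPM (SD, n = 3 each), a KOStra8 level of 82.5% of the HETStra8 level. The log2 fold change of *Clu* was -0.28 (SE 0.091, 95% interval from -0.48 to -0.082) and the adjusted p was 0.266 in edgeR's test. Without HETStra8 mouse 1, in which *Crisp1* and *Adam7* stood out, the log2 fold change was -0.17 (adjusted p = 0.512 in edgeR's test), and the groups still did not overlap. *Clu* was the only member whose groups stayed apart after the GC correction, with a log2 fold change of -0.15 (SE 0.0654) and an adjusted p of 0.633 by edgeR. With the correction and without HETStra8 mouse 1 it was -0.082 (adjusted p = 0.909 in edgeR's test).

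The niche ligands *Kitl* and *Gdnf* act on germ cells. *Kitl* (ENSMUSG00000019966), the ligand of KIT on differentiating spermatogonia, lies on chromosome 10 from 100015630 to 100100416 on the plus strand. Its levels were 14.8, 10.4 and 16.8 CPM in HETStra8 mice 1 to 3 and 18.8, 15.6 and 24.9 CPM in KOStra8 mice 1 to 3. The groups overlapped, since KOStra8 mouse 2 lay below HETStra8 mouse 3. The means of *Kitl* were 14.0 ± 3.28 and 19.8 ± 4.75 CPM (SD, n = 3 each). The log2 fold change was 0.50 (SE 0.204, 95% interval from 0.049 to 0.96) and the adjusted p was 0.367 in edgeR's test. It was the only member with a higher estimate in KOStra8 testes. Single mice moved it, to 0.30 without KOStra8 mouse 3 and to 0.33 without HETStra8 mouse 2, and the GC correction brought it to 0.22 with a 95% interval from -0.17 to 0.62 (adjusted p = 0.838 in edgeR's test).

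*Gdnf* (ENSMUSG00000022144), the factor that maintains spermatogonial stem cells through the receptors GFRA1 and RET, lies on chromosome 15 from 7810846 to 7837575 on the plus strand. HETStra8 mice 1 to 3 had 44, 44 and 25 counts of it and KOStra8 mice 1 to 3 had 38, 20 and 53, the lowest counts of the 10 genes. The ranges overlapped over nearly their whole length, and the log2 fold change was -0.088 with a 95% interval from -0.93 to 0.75 (adjusted p = 0.947 in edgeR's test). The coefficient of variation of *Gdnf* over the 6 mice was 29.6%, and differences anywhere within this interval are compatible with these counts of 3 mice in each group.

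**Figure D2:**
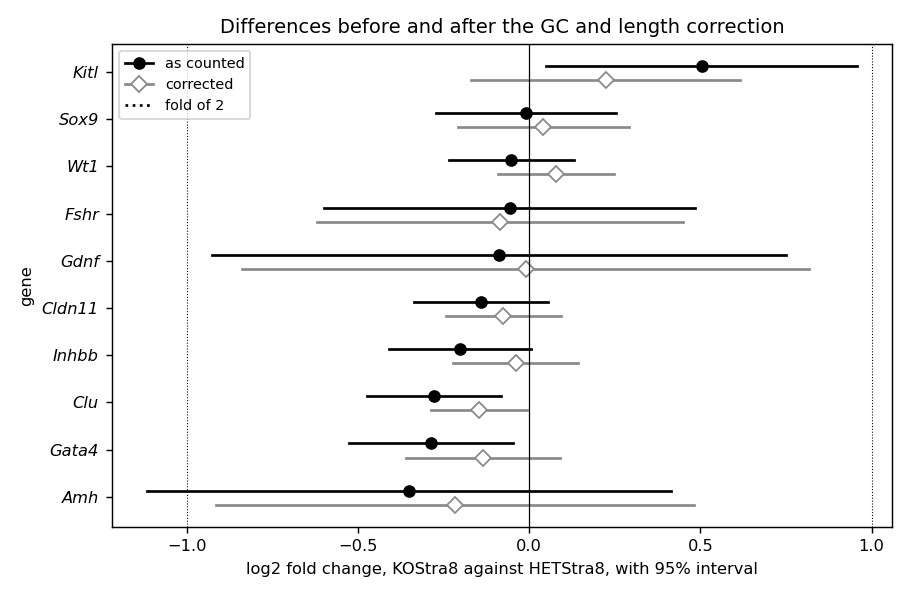
Log2 fold change of each Sertoli gene, KOStra8 against HETStra8, with its 95% interval, as counted (black circles) and after the GC correction (grey diamonds). The interval excludes 0 as counted for *Gata4*, *Clu* and *Kitl*, and after the correction for *Clu* alone, and the dotted lines mark a fold of 2.

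Over the 10 genes the median log2 fold change was -0.11, beside -0.0094 over all tested genes, and 9 of the 10 estimates were below 0, as were 51.5% of all tested genes. In all, 7 of the 10 intervals included 0 and 9 lay wholly within a fold of 2. Deviations from each gene's own average over the 6 mice were also compared. The median member deviated by 0.16, 0.055 and 0.023 on the log2 scale in HETStra8 mice 1 to 3 and by -0.059, -0.042 and -0.076 in KOStra8 mice 1 to 3, with HETStra8 mouse 1 farthest from 0. The mean over the members was 0.19, 0.016 and -0.070 in HETStra8 mice 1 to 3. In KOStra8 mice 1 to 3 it was -0.071, -0.077 and 0.011, so that by the mean the groups overlapped. Without HETStra8 mouse 1 the median log2 fold change of the members was -0.066, and without HETStra8 mouse 3 it was -0.19. Leaving out HETStra8 mouse 1 moved *Gata4* (-0.32), *Kitl* (0.55), *Fshr* (-0.13) and *Wt1* (-0.058) farther from 0. *Inhbb* was then at -0.16, and *Sox9* (0.066) and *Gdnf* (0.073) changed sign.

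Fold changes in these libraries followed base composition. Over 21457 tested genes the log2 fold change had a Spearman rho of -0.46 with the GC content of the longest transcript, as a description across genes that share libraries. Over the 10 members, which share the same 6 libraries, the same rho was -0.87. Of the members, 8 lay above the median GC content of all tested genes, 48.8%. *Kitl*, the member with the lowest GC content (39.3%), had the highest log2 fold change, and *Amh*, with the highest (65.5%), had the lowest, with *Inhbb* (60.9%) and *Gata4* (57.4%) next to it in GC content. The first 120 coding bases of *Kitl* are shown because it stands at the low end of this scale and is the member with the highest estimate. They were read from its longest coding GENCODE transcript on GRCm38, 5′ to 3′ from the start codon, with G and C in capitals.
*Kitl*: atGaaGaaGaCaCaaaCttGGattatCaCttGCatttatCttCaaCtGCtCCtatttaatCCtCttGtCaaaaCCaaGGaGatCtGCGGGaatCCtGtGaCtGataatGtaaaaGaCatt
The *Kitl* stretch lies on chromosome 10 between 100016021 and 100051950 on the plus strand with an intron within it, and holds 44 G or C among its bases (36.7%).

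**Figure D3:**
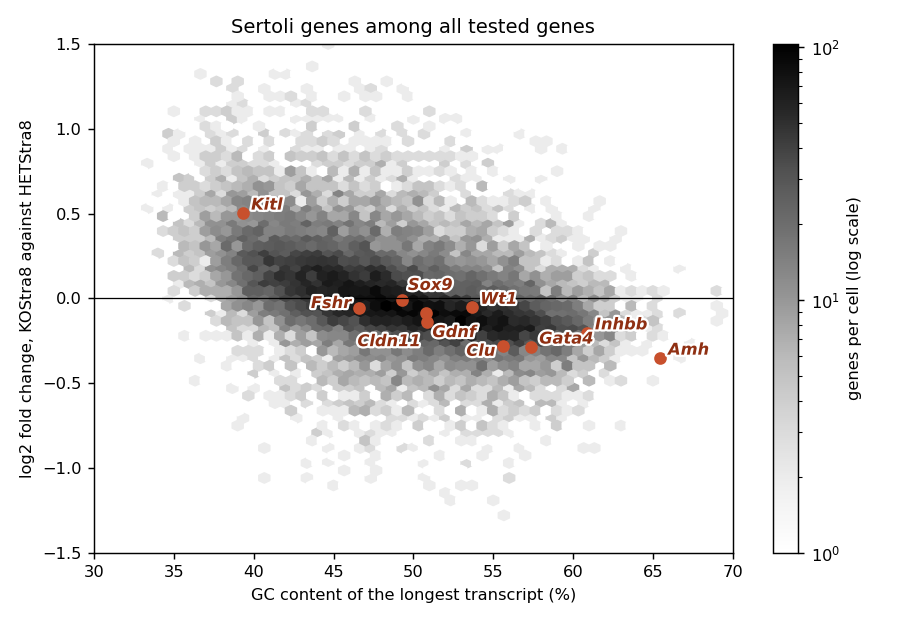
Log2 fold change, KOStra8 against HETStra8, against the GC content of the longest transcript in percent, for tested genes as grey hexagons (darker for more genes, log scale) and the 10 Sertoli genes as red points. The cloud slopes downward with GC content and the members lie along it, with *Kitl* at the upper left and *Amh* at the lower right. There are 111 tested genes outside the axes.

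A correction with a smooth curve of GC content and length for each library left a rho of -0.00066 over all tested genes and of -0.62 over the members. The median log2 fold change of the members was then -0.058, with 7 of 10 estimates below 0 where 50.2% of all tested genes were. After the correction 1 member had groups without overlap, *Clu*, where 6.48% of all tested genes were lower without overlap. That gene was also the only one at an unadjusted p below 0.05, a threshold that 7.59% of all tested genes passed. The part of base composition in the differences of single genes was not tested.

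Per kilobase of exon the members spanned a wide range of levels, from clusterin to *Gdnf*. In HETStra8 testes *Clu* stood at 226 ± 27.7 CPM per kb (SD, n = 3) and *Cldn11* at 34.1 ± 2.72 CPM per kb (SD, n = 3). *Wt1* and *Inhbb* followed at means of 7.55 and 7.56 CPM per kb and overlapped in HETStra8, although in KOStra8 testes *Wt1* lay above *Inhbb* in all mice. *Gata4* (5.93 CPM per kb) and *Sox9* (3.62 CPM per kb) came next, each apart from the gene above it in both groups. *Kitl*, at 2.37 CPM per kb, lay below *Sox9* in all HETStra8 mice and overlapped it in KOStra8. *Amh* (1.61 CPM per kb) overlapped *Kitl* in HETStra8 alone and *Fshr* (0.980 CPM per kb) in both groups, and *Gdnf* was lowest at 0.314 CPM per kb, apart from *Fshr* in both groups.

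**Figure D4:**
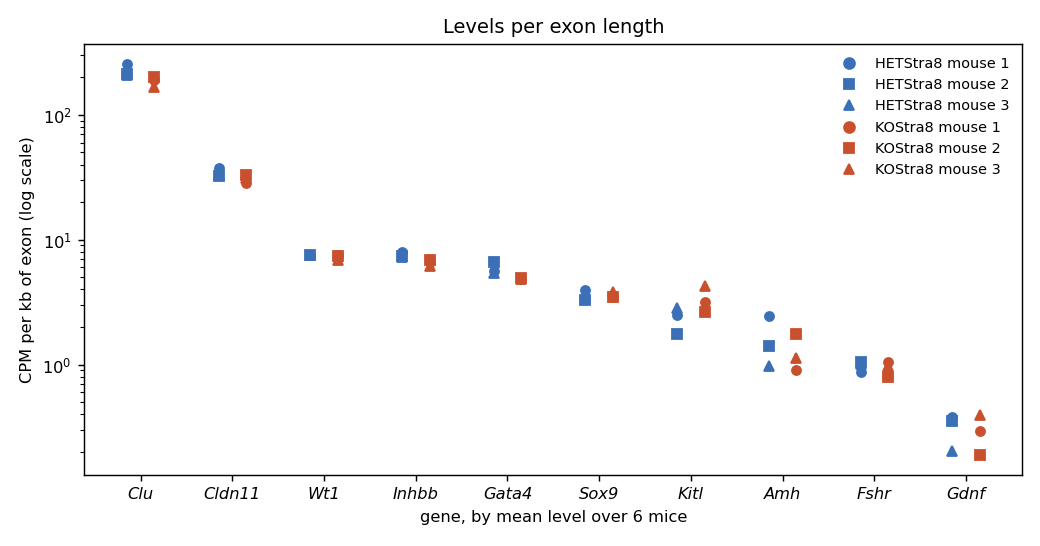
Level of each Sertoli gene in CPM per kilobase of exon (log scale), in 3 HETStra8 (blue) and 3 KOStra8 (red) mice, with genes in the order of their mean over the 6 mice. In every mouse *Clu* is the highest, *Cldn11* the next and *Gdnf* the lowest of the 10 genes.

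Summed over the members, levels were 909 to 1096 CPM in HETStra8 and 769 to 876 CPM in KOStra8 testes, and *Clu* made up 74.9% to 80.7% of these sums. Without *Clu* the sums were 195 to 211 CPM in HETStra8 and 186 to 193 CPM in KOStra8 testes. Neither range overlapped between the groups, in sums that were not corrected for GC content. Without *Clu* the nearest values were 195.4 CPM in HETStra8 mouse 2 and 192.8 CPM in KOStra8 mouse 3. Among single tested genes 8.43% were lower without overlap.

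A wider list of 32 Sertoli genes, none of them a member, held 30 tested genes. The transcripts of *Trf* (transferrin) and *Inhba* were below the filter, with means of at most 0.321 CPM in either group. Of the 30 tested genes 0 passed the cutoffs, or an adjusted p below 0.05 at any fold, by edgeR, and 5 were lower and 0 higher at an unadjusted p below 0.05, beside 5.12% and 7.13% of all tested genes. Their median log2 fold change was -0.14, and -0.082 after the GC correction, with 23 of 30 estimates below 0 as counted, beside 51.5% of all tested genes. Groups did not overlap for 6 genes that were lower and 3 that were higher in KOStra8 testes, beside 8.43% and 9.33% of all tested genes. After the correction 22 of 30 estimates were below 0, beside 50.2% of all tested genes. By edgeR 6 genes were then lower and 0 higher at an unadjusted p below 0.05, beside 750 and 880 of the 21465 tested genes. Groups then did not overlap for 6 lower and 3 higher genes, beside 6.48% and 6.86% of all tested genes.

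The genes of this list with the smallest p on the lower side were *Cldn3*, *Dhh* and *Mfge8*. *Cldn3*, a claudin of the barrier under androgen control, was at 7.29, 6.86 and 3.84 CPM in HETStra8 mice 1 to 3 and at 3.58, 3.25 and 2.93 CPM in KOStra8 mice 1 to 3. HETStra8 mouse 3 lay close to the KOStra8 mice. *Cldn3* had a log2 fold change of -0.88 (SE 0.241) with an adjusted p of 0.192 by edgeR, and without HETStra8 mouse 3 it was -1.11 (adjusted p = 0.00463 by edgeR), the only comparison in which a gene of this list passed the cutoffs. After the GC correction it was -0.73 (adjusted p = 0.448 by edgeR), and the groups overlapped. *Dhh*, the hedgehog ligand by which Sertoli cells signal to Leydig and peritubular cells, was at 15.6, 13.0 and 12.9 CPM in HETStra8 mice 1 to 3 and at 10.8, 10.4 and 9.42 CPM in KOStra8 mice 1 to 3. The groups were apart, with a log2 fold change of -0.43 (SE 0.137) that was -0.30 after the GC correction, and an adjusted p of 0.245 by edgeR. *Mfge8*, a secreted protein that binds phosphatidylserine on dying cells, was at 50.3 ± 4.84 and 41.0 ± 2.02 CPM (SD, n = 3 each), with a log2 fold change of -0.30 (adjusted p = 0.252 in edgeR's test). On the higher side were *Tjp1*, *Fgf2* and *Ocln*. *Tjp1*, the scaffold ZO-1 of tight junctions, was at 111 ± 7.79 and 124 ± 6.92 CPM (SD, n = 3 each), with a log2 fold change of 0.16 (adjusted p = 0.434 in edgeR's test) and groups that touched without overlap, at 115.8 CPM in HETStra8 mouse 3 and in KOStra8 mouse 2. *Fgf2*, a growth factor, and *Ocln*, the tight junction protein occludin, had log2 fold changes of 0.40 and 0.31, and their adjusted p was 0.463 and 0.498 by edgeR.

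The receptors and binding partners of the members' ligands were represented by 13 genes, all tested. At an adjusted p below 0.05 in edgeR's test 0 passed, and at an unadjusted p below 0.05 2 were lower and 1 was higher, beside 5.12% and 7.13% of all tested genes. The median log2 fold change of the 13 genes was 0.0031. *Amhr2*, the receptor of anti-Müllerian hormone on Sertoli and Leydig cells, was at 180, 169 and 161 CPM in HETStra8 mice 1 to 3 and at 143, 141 and 134 CPM in KOStra8 mice 1 to 3. All KOStra8 testes lay below all HETStra8 testes. *Amhr2* had a log2 fold change of -0.29 (SE 0.0739), and -0.14 after the GC correction. Its adjusted p in edgeR's test was 0.166, and lay between 0.0193, without HETStra8 mouse 3, and 0.998 across the alternatives. *Acvr1*, a type I receptor that signals with AMHR2, stood at a log2 fold change of -0.61 (adjusted p = 0.257 in edgeR's test), with 6.44 ± 1.34 and 4.22 ± 0.450 CPM (SD, n = 3 each). *Acvr2a*, an activin receptor, was higher by 0.26 on the log2 scale (adjusted p = 0.375 in edgeR's test), and 0.012 after the correction. *Fstl3*, which binds activin, *Lrp8* (ApoER2, which binds clusterin), and *Tgfbr3* (betaglycan, which binds inhibin) had log2 fold changes of -0.18, 0.10 and 0.20, and their adjusted p was 0.671, 0.671 and 0.757 by edgeR. The receptors of the niche ligands are named after their values were seen. *Kit* was at 26.0 and 26.9 CPM, *Gfra1* at 3.90 and 4.18 CPM and *Ret* at 2.03 and 1.75 CPM in HETStra8 and KOStra8 means, and edgeR's adjusted p was at least 0.854 for each.

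Lists of markers of other cells of the testis were summed in the same way. The 7 Leydig genes lay at 534 to 813 CPM in HETStra8 and 447 to 579 CPM in KOStra8 testes, with 7 of 7 estimates below 0 and a median log2 fold change of -0.30. After the GC correction 7 of 7 were below 0, with a median of -0.25. Over all tested genes 51.5% of estimates were below 0 as counted and 50.2% after the correction. These are the shares to set beside these counts and those that follow. HETStra8 mouse 1 was the highest for the Leydig list, as it was for *Clu*, *Cldn11*, *Inhbb*, *Amh* and *Sox9*. The 6 peritubular myoid genes lay at 362 to 440 CPM in HETStra8 and 350 to 387 CPM in KOStra8 testes, with 6 of 6 estimates below 0 and a median of -0.15. After the correction 4 of the 6 were below 0, with a median of -0.075. The 6 spermatocyte genes lay at 860 to 1088 CPM in HETStra8 and 1114 to 1172 CPM in KOStra8 testes, without overlap, with a median log2 fold change of 0.35, and of 0.10 after the correction. Singly, 1 of these genes was higher without overlap, beside 9.33% of all tested genes. It was *Sycp1*, named after its values were seen, at means of 125.5 CPM in HETStra8 and 245.5 CPM in KOStra8. *Piwil1*, the highest of the 6, was at 529 and 521 CPM. Spermatogonial markers (108 to 124 and 113 to 120 CPM), spermatid markers (10120 to 10250 and 9085 to 10610 CPM), macrophage markers (66.6 to 75.6 and 58.9 to 79.4 CPM) and endothelial markers (17.7 to 25.4 and 16.9 to 24.1 CPM) overlapped between HETStra8 and KOStra8. Of the 6 macrophage genes, 5 had estimates below 0, with a median log2 fold change of -0.23 that was -0.13 after the correction. Of these genes 3, named after their values were seen, were lower without overlap (*Cd68*, *C1qa* and *C1qb*), beside 8.43% of all tested genes. After the correction 2 were, *Cd68* and *C1qb*, beside 6.48% of all tested genes. Of the 5 endothelial genes, 3 had estimates below 0, with a median of -0.19 that was -0.17 after the correction. The 6 epididymal genes lay at 4.11 to 13.1 CPM in HETStra8 and 2.98 to 6.27 CPM in KOStra8 testes, with between 2 and 5 of them at 0 counts in each mouse. The part of these cells in the values of the Sertoli genes was not tested.

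**Figure D5:**
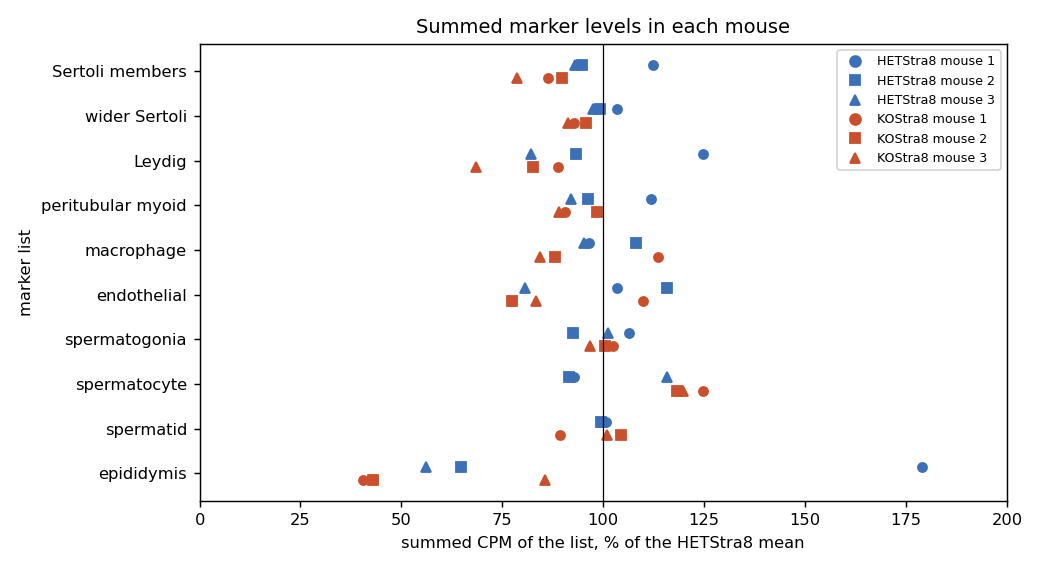
Summed CPM of each marker list in each mouse as percent of the HETStra8 mean of that list, for 3 HETStra8 (blue) and 3 KOStra8 (red) mice, with marker shapes for the mouse number. Both Sertoli lists lie lower in all KOStra8 mice than in all HETStra8 mice, and the spermatocyte list lies higher. HETStra8 mouse 1 is highest for both Sertoli lists and for the Leydig, myoid, spermatogonial and epididymal lists.

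The genes outside these lists whose profile over the 6 mice lay nearest to the mean profile of the members were *Tbc1d1*, *Tprgl* and *Arl6ip1*. Their root mean square distances from it were 0.0153, 0.0177 and 0.0181 on the log2 scale. That mean profile was highest in HETStra8 mouse 1, at 0.19 above a gene's average.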

How the data were processed

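Testis RNA of 6 mice was analysed, 3 KOStra8 and 3 HETStra8, grouped and numbered by the sample titles. For each mouse the authors deposited raw counts, whole numbers of reads on each of 55536 Ensembl genes. The submitters' processing notes name STAR 2.7.1a, featureCounts 1.6.0, HTSeq and StringTie 2.0.4 among their tools and the builds mm10 and GRCm38, without their roles. The strand setting of the counting is not given in the sources used here, and 0 annotated genes overlap a member on either strand. Library totals of 28875108 to 36526695 counts set the precision, and genes of few counts carry more counting error.

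Comparisons used edgeR 4.0.16 (R 4.3.3). Its filterByExpr kept 21465 genes, libraries were scaled with TMM, and a quasi-likelihood model with robust dispersion and genotype alone gave two-sided F tests, with p-values adjusted over all tested genes (Benjamini-Hochberg). A gene was called at an adjusted p below 0.01 and a fold over 2. CPM are TMM-normalized, log2 CPM used a prior count of 2, and levels per kb used merged exon length. Symbols, positions and GC content came from GENCODE M21 on GRCm38. Replicates of a group differed by more than counting noise, so no library was counted as a duplicate. The steps were tested on simulated data.

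The alternatives were DESeq2 size factors or library totals, no filter or a minimum of 10 counts in each library, a block for the mouse number, a GC correction (offsets from GC content and length by loess, span 0.3, genes above a log2 CPM of 2), that correction with the block, DESeq2 1.42.0, limma-voom (limma 3.58.1), an adjusted or unadjusted p of 0.05, and leaving out each mouse. Leaving out each mouse under the correction was added after the values were seen.

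The members and lists were chosen with earlier results of these data known. The text names the 10 members, *Sel1l*, the 3 genes with the smallest p in each direction of the wider Sertoli and receptor lists (all at an adjusted p below 0.05, had there been any), and the 3 genes nearest in profile. Others are said to be chosen after their values were seen, or stand as values beside a member.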

Additional observations from a re-analysis of the deposited data

How the results depend on the processing

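The 10 members were refitted under 21 alternatives. Of these 210 log2 fold changes, 182 kept their direction and their side of the cutoffs, 28 reversed sign, and 0 passed the cutoffs. Each reversal concerned *Sox9*, *Wt1*, *Amh*, *Fshr* or *Gdnf*, and the cause was not tested. *Sox9* reversed with library totals (0.0020), the GC content and length correction (0.041) and that correction with the replicate block (0.042), and *Wt1* with the correction (0.0784) and with the correction and the block (0.0789). With each mouse left out, *Sox9* lay between -0.071 and 0.066, *Wt1* between -0.076 and -0.015, *Amh* between -0.65 and 0.084, *Fshr* between -0.14 and 0.057, and *Gdnf* between -0.36 and 0.15. With each mouse left out under the correction, chosen after seeing the data, *Sox9* lay between -0.027 and 0.10, *Wt1* between 0.044 and 0.12, *Amh* between -0.48 and 0.16, *Fshr* between -0.18 and 0.027, and *Gdnf* between -0.30 and 0.22. *Clu* kept its sign throughout, between -0.33 and -0.082, *Gata4* between -0.33 and -0.046, *Inhbb* between -0.23 and -0.015, *Cldn11* between -0.18 and -0.026, and *Kitl* between 0.047 and 0.67.

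The genes called over all tested genes, 1 higher and 1 lower, became 22 and 17 with no filter on low counts. The number higher was 4 with the block, 5 in DESeq2 and 4 at an adjusted p below 0.05. An unadjusted p below 0.05 gave 1530 higher and 1100 lower genes. With each mouse left out, 1 to 42 were higher (42 without HETStra8 mouse 3) and 0 to 4 lower. Under the correction these were 1 to 3 and 1 to 4. Of the members, 1 was higher and 2 were lower at an unadjusted p below 0.05, as were 5 genes of the wider list on the lower side, of which 0 to 1 passed the cutoffs with a mouse left out. The median of the members moved from -0.11 to -0.0577 with the correction, alone or with the block. It lay between -0.19 and -0.066 with each mouse left out, and between -0.095 and 0.0089 under the correction, where it was above 0 without HETStra8 mouse 1. The median of the wider list lay between -0.15 and -0.10 with each mouse left out and between -0.13 and -0.054 under the correction.

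Mice of equal number did not deviate together, with correlations of -0.060, -0.052 and 0.11, so the numbers were not taken as pairs. KOStra8 mouse 3 alone correlated best with its own number. With the replicate block, 0 members passed the cutoffs, and *Kitl* had an adjusted p of 0.0748 by edgeR. *Gdnf*, *Fshr* and *Amh* had at most 129 counts per mouse and the widest intervals, and the shares of counting error and of spread between mice in them were not separated.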

Other observations

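Within the wider Sertoli list, the GC correction changed which genes had separate groups. As counted and after it alike, 6 genes were lower and 3 higher without overlap. Of all tested genes these were 8.43% and 9.33% as counted, and 6.48% and 6.86% after it. The genes named here were chosen after their values were seen. *Ctsl*, which encodes the protease cathepsin L that Sertoli cells secrete, had a log2 fold change of -0.14 as counted and -0.25 after the correction (adjusted p = 0.431 in edgeR's test), with all corrected KOStra8 values below all HETStra8 values. *Gja1*, the gap junction protein connexin 43, had -0.049 as counted and -0.19 after the correction (adjusted p = 0.635 in edgeR's test), again with separate groups. *Tsx* likewise went from overlapping to separate groups, with -0.117 as counted and -0.195 after the correction (adjusted p = 0.707 in edgeR's test). *Espn*, the actin-bundling protein espin of the ectoplasmic specialization, went the other way, from -0.20 with separate groups to -0.049 (adjusted p = 0.927 in edgeR's test) with overlapping ones. *Cldn3* and *Aard* also had separate groups as counted and overlapping ones after the correction. *Rhox5*, a homeobox gene under androgen control in Sertoli cells, was at 11.7, 11.6 and 11.6 CPM in HETStra8 mice 1 to 3 and at 8.45, 10.6 and 8.57 CPM in KOStra8 mice 1 to 3, with separate groups before and after the correction (adjusted p = 0.361 and 0.653 in edgeR's test). *Cdh2*, N-cadherin of the Sertoli-germ cell contact, was at 46.9 CPM in HETStra8 mouse 1 and at 74.4 to 85.3 CPM in the other mice.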
